A study of Mus musculus with 4 samples.

Results

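The genes described here run the one-carbon cycle and the DNA methylation machinery of the mouse brain. They were chosen by name, as folate and methionine cycle enzymes and as writers, erasers and readers of DNA methylation. Their values were not a criterion, but earlier results of these data were known when they were chosen. Of 35 such genes, 31 have at least 1 probe set whose annotation names them alone, and these 31 are described out of 19946 genes named alone on the array. They have 37 of its 35556 probe sets. The one-carbon genes account for 19 probe sets of 16 genes, and the DNA methylation genes for 18 probe sets of 15 genes. Ahcy and Tdg lie only on probe sets that also name a related sequence, and are given apart. Mat2a and Mbd5 are named by no probe set in the annotation used, so only their promoter windows were examined.

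The arrays measured whole-brain RNA of adult C57BL/6J males that had been injected subcutaneously on postnatal days 4 and 7, a stage of rapid brain growth that in humans falls late in gestation. Ethanol mice received 2 doses of 2.5 g/kg on each day, 2 hours apart, as 20% ethanol in 0.15 M saline, whereas control mice received 0.15 M saline alone, and pups of both groups were kept from the dam during treatment. There were 4 arrays (Affymetrix Mouse Gene 1.0 ST), 2 per group, and RNA of 3 males, each of a different litter, was pooled for every array, with littermates in both groups. By title, the control arrays are control 1 and control 3 and the ethanol arrays ethanol 2 and ethanol 4. Per the labels, mice were weaned on day 25 and brains taken on day 60, whereas the methods of the study give other days for both. The treatment entry of the labels contradicts the title of control 1 and of ethanol 4. Groups here follow the title and source name, and values under the treatment entry are given where they change a result.

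The folate cycle carries single-carbon units on tetrahydrofolate and hands them to thymidylate, purines and methionine. Methionine is turned into S-adenosylmethionine, the methyl donor of DNA methyltransferases, which leaves S-adenosylhomocysteine and homocysteine to be recycled or passed to cysteine by transsulfuration. DNA methyltransferases place methyl groups on cytosines of CpG sites, TET dioxygenases oxidize them, and methyl-CpG-binding proteins read them and recruit co-repressors. Ethanol is known to interfere with folate uptake and methionine synthesis, mainly from work on the liver.

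The clearest differences among these genes were in the reader Mbd3 and in Tyms, the thymidylate synthase, both lower on the ethanol arrays under every normalization tried. The folate enzymes Shmt2 and Mtr, the methyltransferase Gnmt and the writer Dnmt3a were lower as deposited. So was the array as a whole, with a median difference of -0.146 over all probe sets (log2, ethanol minus control). After quantile normalization none of these genes passed the limits of the study, which are given below. Mthfd1 and Mthfd2 were higher once the arrays had been brought to a common distribution. No gene of either group passed an adjusted p of 0.05 in limma.

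Promoter windows of Mbd3 and of the folate genes Tyms, Shmt2, Mthfd2 and Mthfd1 are shown first, as the genes on which the results below turn, and because CpG sites are the substrate of the machinery described. The windows are those of RefSeq on GRCm38.p6, 250 bases before to 50 after the annotated start, written 5′ to 3′ with each CpG in capitals.
Mbd3 (chr10:80399482-80399781, minus strand, 22 CpG sites): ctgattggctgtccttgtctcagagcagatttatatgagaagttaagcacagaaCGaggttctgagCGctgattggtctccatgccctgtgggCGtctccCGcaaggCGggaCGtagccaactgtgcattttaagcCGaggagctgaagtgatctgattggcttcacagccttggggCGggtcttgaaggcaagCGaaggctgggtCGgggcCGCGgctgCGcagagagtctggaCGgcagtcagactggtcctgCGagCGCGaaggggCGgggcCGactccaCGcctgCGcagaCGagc
Tyms (chr5:30073576-30073875, minus strand, 9 CpG sites): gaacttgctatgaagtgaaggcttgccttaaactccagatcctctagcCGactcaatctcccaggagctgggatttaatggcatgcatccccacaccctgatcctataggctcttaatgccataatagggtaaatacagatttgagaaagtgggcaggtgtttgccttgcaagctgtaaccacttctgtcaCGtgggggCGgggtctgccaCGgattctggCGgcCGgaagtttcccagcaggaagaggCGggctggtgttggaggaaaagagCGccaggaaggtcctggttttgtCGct
Shmt2 (chr10:127522395-127522694, minus strand, 13 CpG sites): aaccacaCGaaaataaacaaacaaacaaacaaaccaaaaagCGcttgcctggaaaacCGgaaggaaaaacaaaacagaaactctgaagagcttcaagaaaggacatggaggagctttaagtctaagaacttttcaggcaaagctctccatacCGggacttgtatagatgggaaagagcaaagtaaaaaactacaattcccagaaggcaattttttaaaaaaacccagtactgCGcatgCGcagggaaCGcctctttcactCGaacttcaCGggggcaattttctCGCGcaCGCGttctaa
Mthfd2 (chr6:83317555-83317854, minus strand, 15 CpG sites): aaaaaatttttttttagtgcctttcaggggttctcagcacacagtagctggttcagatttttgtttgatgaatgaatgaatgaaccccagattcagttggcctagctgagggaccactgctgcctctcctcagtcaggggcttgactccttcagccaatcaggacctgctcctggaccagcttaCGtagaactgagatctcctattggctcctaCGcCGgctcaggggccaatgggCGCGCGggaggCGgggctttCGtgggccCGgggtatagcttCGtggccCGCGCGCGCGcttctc
Mthfd1 (chr12:76254982-76255281, plus strand, 16 CpG sites): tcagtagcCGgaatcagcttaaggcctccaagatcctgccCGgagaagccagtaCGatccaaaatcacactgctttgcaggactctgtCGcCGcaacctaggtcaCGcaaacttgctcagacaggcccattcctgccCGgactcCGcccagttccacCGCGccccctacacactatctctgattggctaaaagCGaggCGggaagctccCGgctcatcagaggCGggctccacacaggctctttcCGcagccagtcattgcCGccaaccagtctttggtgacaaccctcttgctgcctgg

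The sequences differ in where their CpG sites lie. In Mthfd1 they are spread over the window, whereas in Mthfd2 all lie in its later part, around the start of the gene, as do all but 1 in Tyms. Promoter windows were found for 30 of the 35 genes, 40 windows in all, because some genes have several starts, and Folr1, Cth, Mat1a, Mbd1 and Mbd2 were not matched. The median was 19 CpG sites over these windows, against 7 over all 32851 windows of mouse genes. For the one-carbon genes the median was 17 (range 8 to 39), and for the DNA methylation genes 22 (range 2 to 57). Tet2, a dioxygenase that oxidizes 5-methylcytosine, had the 57, and the 2 belonged to the most upstream window of Dnmt1, whose other windows held 12 and 33. Genes with low signals on these arrays varied, with 3 to 6 CpG sites in the windows of Dnmt3l, 11 in Gnmt, 17 in Shmt1, and 12 and 33 in Uhrf1. No methylation was measured on these samples.

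The sequence TCCTGCNA, searched on both strands as a form of the site of Kaiso (the product of Zbtb33), occurred once each in the windows of Mbd3, Mat2a and Mthfd1, and in 4.96% of all windows. The letters GCGC, any base and TGCGC in a row, on either strand, a form of the site of the methylation-sensitive factor NRF1, was found in windows of Dnmt1, Mtrr and Shmt2, and in 4.60% of all windows. CCAAT, on either strand, was in 20 of the 40 windows and in 37.4% of all windows. The windows of Mbd3 and Mthfd2 held 3 each, and those of Tyms and Shmt2 none. These are matches of letters and were not examined for binding.

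**Figure D1:**
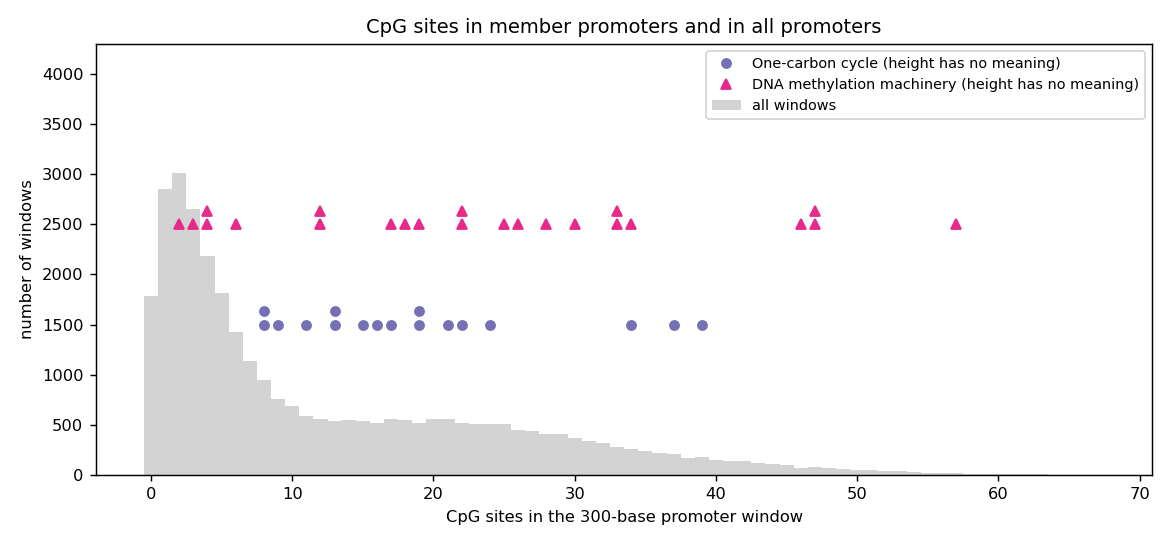
CpG sites in the 300-base promoter windows. Grey bars give the number of all 32851 windows (vertical axis) at each number of CpG sites (horizontal axis), and symbols mark the 17 windows of one-carbon genes and the 23 of DNA methylation genes, whose height has no meaning. The symbols lie mostly to the right of the peak of all windows, with a median of 19 against 7.

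Signals over the whole array were lower on the ethanol arrays as deposited. Array medians were 6.61 and 6.51 on the control arrays against 6.33 and 6.38 on the ethanol arrays (log2), and the median difference over all probe sets, ethanol minus control, was -0.146. Once the 4 arrays had been quantile normalized again it was -0.0042, so differences are given in both forms. Pearson's r, taken over probe sets and so not over independent replicates, was 0.989 between the controls, 0.992 between the ethanol arrays and 0.982 to 0.987 between groups. The mean log2 signal of 13 neuronal markers was 11.84 and 11.73 for the controls and 11.67 and 11.69 for the ethanol arrays. After quantile normalization 7 of the 13 had both ethanol arrays below both controls and 1 had them above, against 24.9% and 24.0% of all probe sets. Of 7 oligodendrocyte probe sets 5 were below and 0 above. Of 9 microglial probe sets 0 were below and 4 above, as were 0 and 4 of 7 for endothelium and mural cells. Liver markers, counted in the same way, had 0 below and 4 above of 12. Astrocytes had 2 and 2 of 9, neuroblasts 0 and 2 of 7, and meninges 1 and 4 of 9. Pituitary had 2 and 1 of 9, and blood 0 and 0 of 2. The part of these cell types in the differences below was not tested. The pituitary hormone Gh was at 6.53 on ethanol 2 and at 12.19 to 12.26 on the other 3 arrays, and values without ethanol 2 are given where they differ.

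The limits of the study were a 1.2-fold difference (0.263 on the log2 scale) and an unadjusted p under 0.05, here from limma, two-sided. The methods' test, made on each probe set alone, is named where it ends a call. As deposited, 6 of the 37 probe sets passed both limits downward (16.2%), against 17.9% of all probe sets, and none was higher, against 2.23% (20.1% in either direction). After quantile normalization 2 were lower and 2 higher (5.41% each), against 5.87% and 5.71% of all (11.6% in either direction). These shares were near the background, so the counts do not set the genes apart from the rest of the array. As deposited, 21 of the 37 had both ethanol arrays below both controls and 4 had them above, against 52.7% and 7.25% of all probe sets. After normalization 6 were below and 9 above, against 24.9% and 24.0% of all.

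An adjusted p under 0.05 in limma was reached by none of the 37, of which 7 had an unadjusted p under 0.05 as deposited and 4 after quantile normalization. Of all probe sets, 0% reached it and were lower in either form, 0.00281% (1 probe set) were higher as deposited, and 0.00562% (2 probe sets) were higher after normalization.

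**Figure D2:**
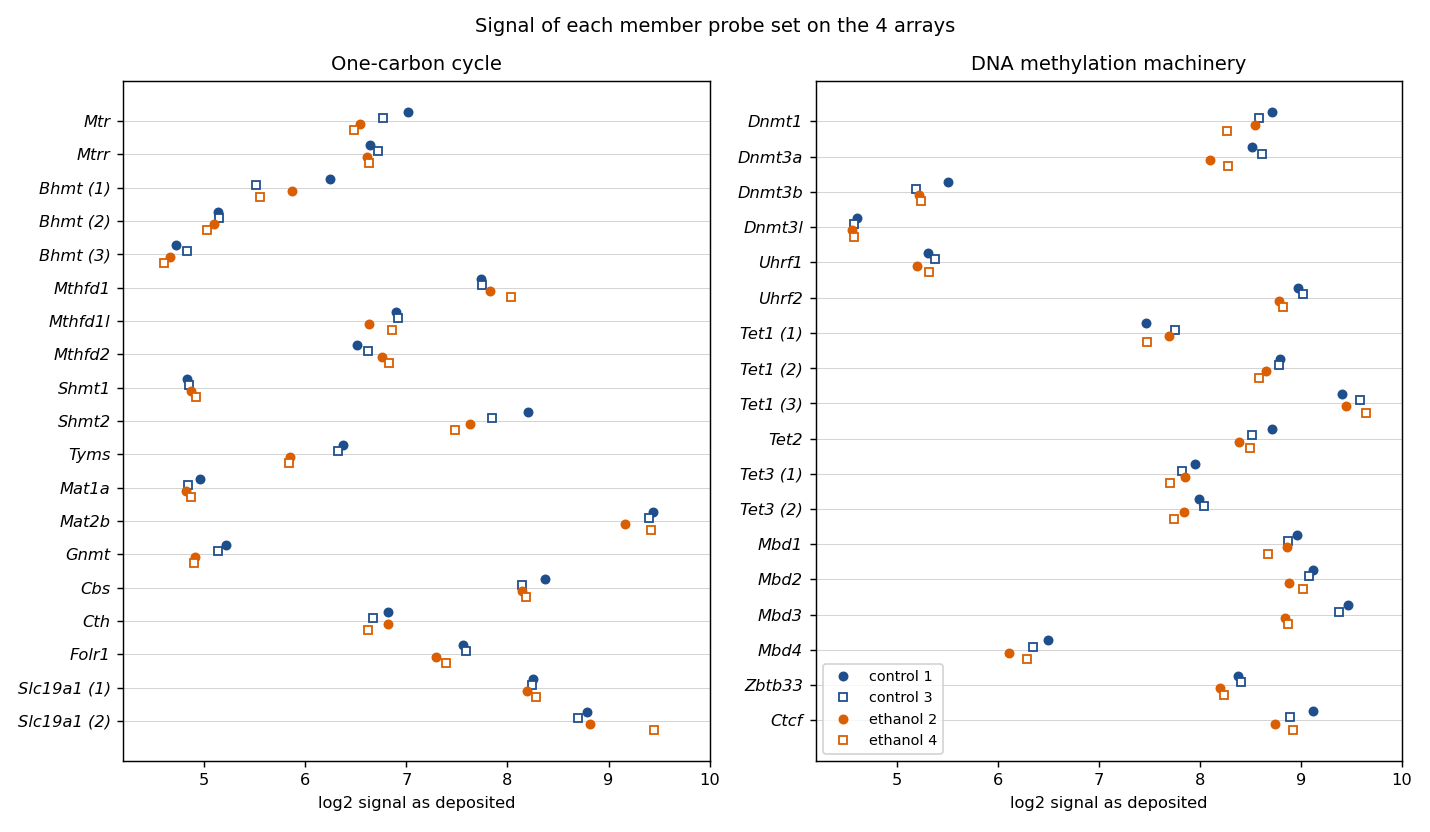
Log2 signal as deposited (horizontal axis) of each of the 37 probe sets on the 4 arrays, one-carbon genes on the left and DNA methylation genes on the right; blue marks control arrays and orange ethanol arrays, and numbers in brackets tell apart probe sets of 1 gene in order of their identifiers. Mbd3 and Tyms show the control and ethanol arrays well apart, while Slc19a1 (2) shows ethanol 4 alone above the rest at 9.45.

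Among the one-carbon genes 4 of 19 probe sets were lower past the limits as deposited, those of Tyms, Shmt2, Mtr and Gnmt (21.1%, against 17.9% of all probe sets). After quantile normalization 1 was lower (Tyms, 5.26%, against 5.87% of all) and 2 were higher (Mthfd1 and Mthfd2, 10.5%, against 5.71% of all). With so few probe sets these shares do not set the one-carbon genes apart. The median difference was -0.10 as deposited and 0.046 after quantile normalization. The count of 4 rests on single arrays, as it was 1 without control 1, 1 without ethanol 2 and 1 without ethanol 4, and 4 without control 3. Those left were Tyms without ethanol 2 or ethanol 4 or control 1, and Tyms, Shmt2, Mtr and a probe set of Bhmt without control 3.

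Tyms makes thymidylate from deoxyuridylate with methylene-tetrahydrofolate, a step needed for DNA synthesis. Control 1 gave a log2 signal of 6.37 and control 3 of 6.32, whereas ethanol 2 gave 5.85 and ethanol 4 gave 5.84. The groups did not overlap, and arrays of 1 group differed by at most 0.051. The difference was -0.50 (standard error 0.084, adjusted p = 0.161 in limma), a 1.41-fold decrease. After quantile normalization it was -0.30 (standard error 0.083, adjusted p = 0.305), still past the limits. With 1 array left out the deposited difference ran from -0.52 to -0.47. After normalization it was -0.26 without ethanol 4 and -0.27 without control 3, in both cases no longer past the limits. With groups taken from the treatment entry it was 0.034, since each of those groups holds 1 array of each title.

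Tyms is highest in dividing cells, so markers of such cells were examined beside it. Of 16 probe sets for 14 of 15 listed genes, Mki67 and Mcm3 were lower past the limits as deposited, and none was higher. These were 12.5%, against 17.9% of all probe sets. After quantile normalization none was lower and Mcm6, a replicative helicase subunit, was higher (6.25%, against 5.71% of all). The summed signal of the 14 genes as deposited was 9.42 and 9.33 for the controls and 9.19 and 9.28 for the ethanol arrays (log2). Their mean log2 signal after quantile normalization was 5.41 and 5.42 for the controls and 5.44 and 5.46 for the ethanol arrays. The part of dividing cells in the Tyms value was not tested, and in whole brain fewer cells of a type cannot be told apart from less RNA per cell.

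Shmt2 and Mthfd2 both belong to the mitochondrial branch of the folate cycle, in which Shmt2 splits serine into glycine and methylene-tetrahydrofolate and Mthfd2 oxidizes the latter toward formate. Shmt2 gave log2 signals of 8.21 and 7.84 on control 1 and control 3, and 7.63 and 7.48 on ethanol 2 and ethanol 4. The groups did not overlap, but the control arrays lay 0.365 apart. Its difference was -0.47 (standard error 0.154, adjusted p = 0.200 in limma), and after quantile normalization -0.31, no longer past the limits. As deposited it was past the limits without control 3, at -0.65, but not without control 1, at -0.29, ethanol 2, at -0.54, or ethanol 4, at -0.39. Nor was it by the methods' test, or in limma with control 1 paired to ethanol 4 as a replicate block.

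Mthfd2 went the other way. Its log2 signals were 6.51 and 6.63 on control 1 and control 3 and 6.76 and 6.82 on ethanol 2 and ethanol 4, so both ethanol arrays were above both controls. The difference was 0.22 as deposited (standard error 0.092, adjusted p = 0.246 in limma), short of the limits, and 0.44 after quantile normalization (standard error 0.105, adjusted p = 0.280), past them. After quantile normalization it ran from 0.33 to 0.54 with 1 array left out, and was not past the limits without ethanol 4. The signal of Mthfd2 minus that of Shmt2 within each array, which a shift of the whole array does not change, was -1.69 and -1.22 for the controls and -0.87 and -0.66 for the ethanol arrays. The group means of this measure differed by 0.69 (exact permutation test, two-sided, p = 0.333, the smallest value that 2 arrays against 2 allow). This pair was chosen after its values were seen.

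Mthfd1, the cytoplasmic enzyme with 3 activities that interconvert formate and methylene-tetrahydrofolate, was also higher on both ethanol arrays. Its log2 signals were 7.74 and 7.75 for the controls, 7.82 for ethanol 2 and 8.04 for ethanol 4. The groups did not overlap, and most of the distance came from ethanol 4. The difference was 0.19 as deposited (standard error 0.108, adjusted p = 0.349 in limma), not past the limits, and 0.34 after quantile normalization (standard error 0.106, adjusted p = 0.328), past them. After normalization it was 0.44 without ethanol 2, still past the limits, and 0.25 without ethanol 4, no longer past them. It was 0.30 without control 1 and 0.39 without control 3, not past the limits in either case.

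Mthfd1l, the mitochondrial synthase that releases formate, differed by -0.16 as deposited and by 0.046 after quantile normalization, not past the limits in either form. Shmt1, the cytoplasmic serine hydroxymethyltransferase, had low signals (4.83 to 4.92) and differed by 0.058 and by 0.19. With each array centred on its median it was past the limits at 0.27, as were Mthfd1, Mthfd2 and a probe set of Slc19a1. The median difference over all probe sets was then 0.066. Of the 6 folate interconversion genes, 3 had both ethanol arrays below both controls as deposited (Mthfd1l, Shmt2 and Tyms) and 3 had them above (Mthfd1, Mthfd2 and Shmt1). Over all probe sets 52.7% were below in this way and 7.25% above. After quantile normalization 2 of the 6 were below and 3 above, against 24.9% and 24.0% of all.

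**Figure D3:**
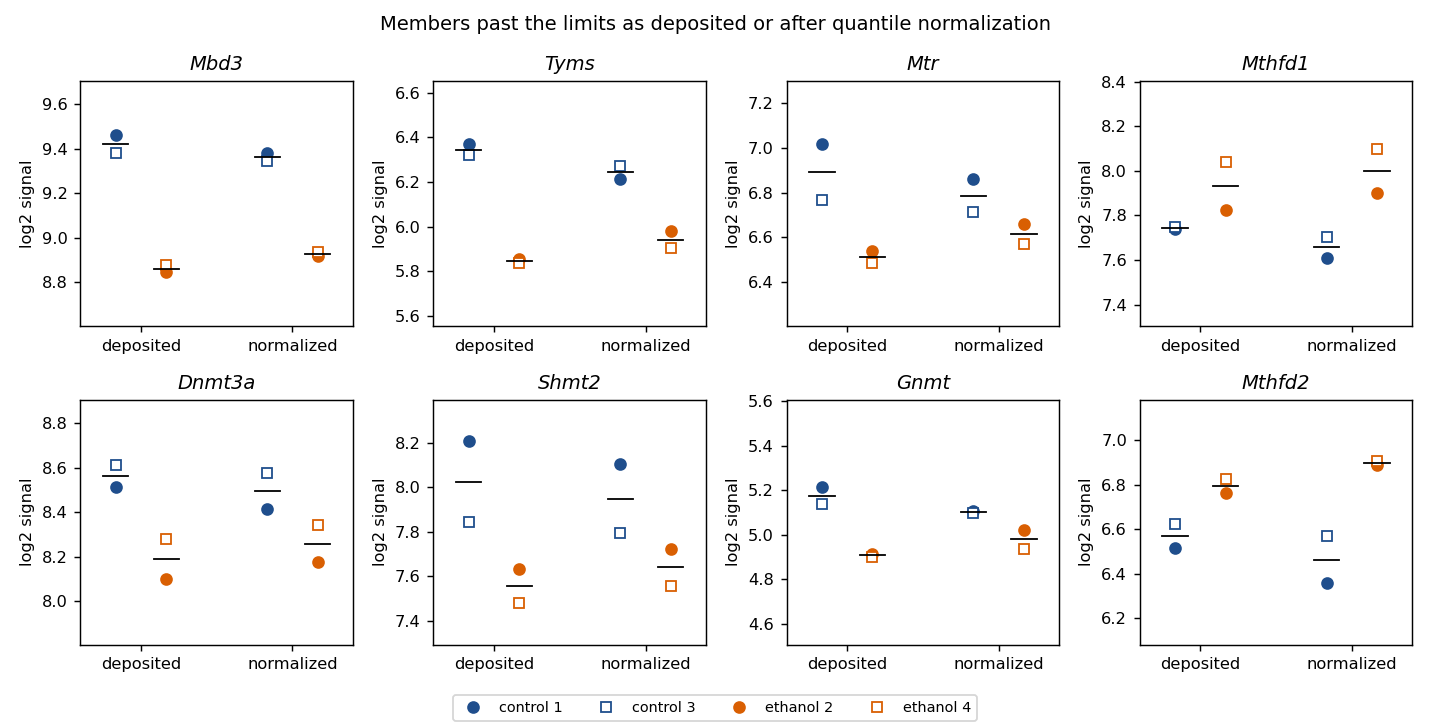
Log2 signal (vertical axes, each spanning 1.1) of the 8 genes past the limits as deposited or after quantile normalization, with deposited values at the left and normalized values at the right of each panel; blue marks control arrays, orange ethanol arrays, and black lines group means. Mbd3 and Tyms keep their groups apart in both forms by more than the arrays of a group differ, and Mthfd1 and Mthfd2 are higher on the ethanol arrays.

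Methionine synthesis was represented by Mtr, Mtrr and Bhmt. Mtr, the cobalamin-dependent methionine synthase, gave log2 signals of 7.02 and 6.77 on control 1 and control 3 and 6.54 and 6.48 on ethanol 2 and ethanol 4. Both ethanol arrays were below both controls. The difference was -0.38 (standard error 0.118, adjusted p = 0.193 in limma) as deposited, and -0.17 after quantile normalization, no longer past the limits. As deposited it was past them without control 3, at -0.51, but not without control 1, at -0.25, ethanol 2, at -0.41, or ethanol 4, at -0.35, nor by the methods' test. Mtrr, the reductase that keeps methionine synthase active, differed by -0.054 (95% interval -0.28 to 0.17) and by 0.15 after quantile normalization.

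Bhmt, which remethylates homocysteine with betaine in the liver, had 3 probe sets, of which 2 were dim, in the lowest 18.9% and 4.24% of signals on every array. The remaining probe set gave log2 signals of 6.24 on control 1, 5.51 on control 3, 5.87 on ethanol 2 and 5.55 on ethanol 4. Control 1 and ethanol 2 were high and the other 2 arrays low, so the titled groups overlapped. Its difference was -0.17 (standard error 0.277, adjusted p = 0.726 in limma), 0.024 after quantile normalization, and 0.53 under the treatment entry, which puts those 2 arrays together, past the limits. No other of the 37 probe sets was past the limits under that grouping. The dim probe sets differed by -0.084 and -0.14 as deposited and by 0.064 and -0.027 after normalization.

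Around the synthesis and turnover of S-adenosylmethionine, Gnmt, Mat1a and Mat2b were measured. Gnmt, a glycine methyltransferase abundant in liver, gave log2 signals of 5.21 and 5.14 for the controls and 4.91 and 4.90 for the ethanol arrays, all in the lowest 14.6% of their arrays. Its difference of -0.27 (standard error 0.086, adjusted p = 0.196 in limma) was just past the limits, and at -0.12 after quantile normalization it was not. With any 1 array left out it was not past the limits, at -0.31 to -0.23, and neither was it in limma with a replicate block, for either pairing of the pools. Mat1a, the liver form of methionine adenosyltransferase, differed by -0.057 (95% interval -0.30 to 0.19) and by 0.074 after quantile normalization. Mat2b, the regulatory subunit of the form used outside the liver, differed by -0.13 and by -0.015, with ethanol 2 alone low at 9.16 and the other 3 arrays at 9.40 to 9.44.

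The probe sets that name Ahcy together with Gm4737, a related sequence, could not be split between them. Ahcy hydrolyses S-adenosylhomocysteine, the inhibitor of methyltransferases. The 3 probe sets differed by -0.075 to 0.0093 as deposited and by 0.11 to 0.18 after quantile normalization, and none was past the limits in either form. For transsulfuration, Cbs, which joins homocysteine to serine, differed by -0.10 (95% interval -0.39 to 0.20) and by 0.042 after quantile normalization. Cth, which releases cysteine, differed by -0.024 (95% interval -0.33 to 0.28) and by 0.18.

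Of the folate carriers, Folr1, a receptor that moves folate across the choroid plexus, gave log2 signals of 7.56 and 7.59 for the controls and 7.29 and 7.39 for the ethanol arrays. The groups did not overlap. The difference of -0.24 (standard error 0.089, adjusted p = 0.222 in limma) was a 1.18-fold decrease, short of the limits, and after quantile normalization it was -0.059. Markers of the choroid plexus were given by 14 of 14 listed genes. Of these Steap1, Kl and F5 were lower past the limits as deposited (21.4%, against 17.9% of all probe sets). After quantile normalization Steap1 alone was lower past them (7.14%, against 5.87% of all), and none was higher in either form. The summed signal of the 14 genes as deposited was 13.40 and 13.42 for the controls and 13.23 and 13.28 for the ethanol arrays. The transthyretin gene Ttr differed by -0.15, and the median difference over all probe sets was -0.146. After quantile normalization the mean log2 signal of the 14 genes was 7.17 and 7.24 for the controls. It was 7.15 and 7.18 for the ethanol arrays, so the groups overlapped. The part of choroid plexus tissue in the Folr1 value was not tested.

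The reduced folate carrier Slc19a1 had 2 probe sets, which disagreed. The first gave log2 signals of 8.19 to 8.28 on all 4 arrays and differed by -0.0091, and by 0.13 after quantile normalization. The second, annotated only with predicted transcripts, had 8.79 and 8.70 for the controls, 8.82 for ethanol 2 and 9.45 for ethanol 4. Ethanol 4 stood 0.635 above ethanol 2, and the difference of 0.39 (standard error 0.228, adjusted p = 0.351 in limma) was not past the limits, nor was the 0.51 after quantile normalization. It was past them as deposited without ethanol 2, at 0.71.

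The DNA methylation genes were nearly all lower as deposited, by about as much as the array as a whole. Of 18 probe sets, 17 had a negative difference (94.4%, against 80.2% of all probe sets). Past the limits were 2, both lower, those of Mbd3 and Dnmt3a (11.1%, against 17.9% of all). The median difference was -0.17, and -0.029 after quantile normalization, when Mbd3 alone was past the limits. The count of 2 was 1 without control 3, and 2 without any other single array, though without ethanol 2 the pair was Mbd3 and Dnmt1.

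Mbd3 is a subunit of the NuRD co-repressor complex. It belongs to the methyl-CpG-binding family but, unlike Mbd2, binds methylated DNA poorly in mammals. Control 1 gave a log2 signal of 9.46 and control 3 of 9.38, whereas ethanol 2 gave 8.85 and ethanol 4 gave 8.88. Both ethanol arrays were well below both controls, and arrays of 1 group differed by at most 0.082. The difference was -0.56 (standard error 0.087, adjusted p = 0.156 in limma), a 1.47-fold decrease. After quantile normalization it was -0.44 (standard error 0.078, adjusted p = 0.213), a 1.35-fold decrease, and with each array centred on its median -0.35, past the limits in each form. With 1 array left out it ran from -0.60 to -0.52 as deposited and from -0.46 to -0.42 after normalization, past the limits each time. Under the treatment entry it was 0.026.

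Mbd2, which occupies the same place in NuRD as Mbd3 in separate complexes, gave log2 signals of 9.12 and 9.08 for the controls and 8.88 and 9.02 for the ethanol arrays. Its difference of -0.15 (standard error 0.094, adjusted p = 0.388 in limma) equalled the shift of the whole array, and was -0.023 after quantile normalization. The signal of Mbd3 minus that of Mbd2 within each array was 0.34 and 0.30 for the controls and -0.037 and -0.15 for the ethanol arrays. The group means of this measure differed by -0.41 (exact permutation test, two-sided, p = 0.333, the smallest that 2 arrays against 2 allow), and the pair was chosen after its values were seen. The level of 1 probe set cannot be compared with that of another, so these values bear on the change of the ratio and not on which gene was more abundant.

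Other subunits of NuRD and partners of the methyl-CpG-binding proteins were covered by 16 probe sets of 13 of 15 listed genes. As deposited, Gatad2a, Sin3a and Tbl1x were past the limits and lower (18.8%, against 17.9% of all probe sets) and none was higher. Gatad2a, which bridges the NuRD remodelling and deacetylase modules, differed by -0.40 (standard error 0.132, adjusted p = 0.202 in limma). After quantile normalization none was lower, and Hdac2, a histone deacetylase of the complex, was higher at 0.36 (6.25%, against 5.71% of all). The median of these probe sets was -0.053 as deposited and 0.047 after normalization.

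The other readers were not past the limits. Mbd1, a repressor with CXXC fingers, and Mbd4, a glycosylase that removes thymine from mismatches at CpG sites, differed by -0.14 and -0.22 as deposited and by -0.012 and -0.015 after quantile normalization. Zbtb33, which encodes Kaiso, differed by -0.17 and by -0.037. Ctcf, the insulator protein whose binding is blocked by methylation at imprinted control regions, gave log2 signals of 9.12 and 8.89 for the controls and 8.74 and 8.93 for the ethanol arrays, which overlapped. It differed by -0.17 (95% interval -0.50 to 0.16) and by -0.043 after quantile normalization. Among 9 of 10 listed partners of Ctcf, mostly cohesin genes, Nipbl, the cohesin loader, was past the limits and lower in both forms. It differed by -0.43 (standard error 0.090, adjusted p = 0.171 in limma) and -0.30, and no partner was higher. This was 11.1% of the 9 probe sets, against 17.9% of all as deposited and 5.87% after normalization.

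**Figure D4:**
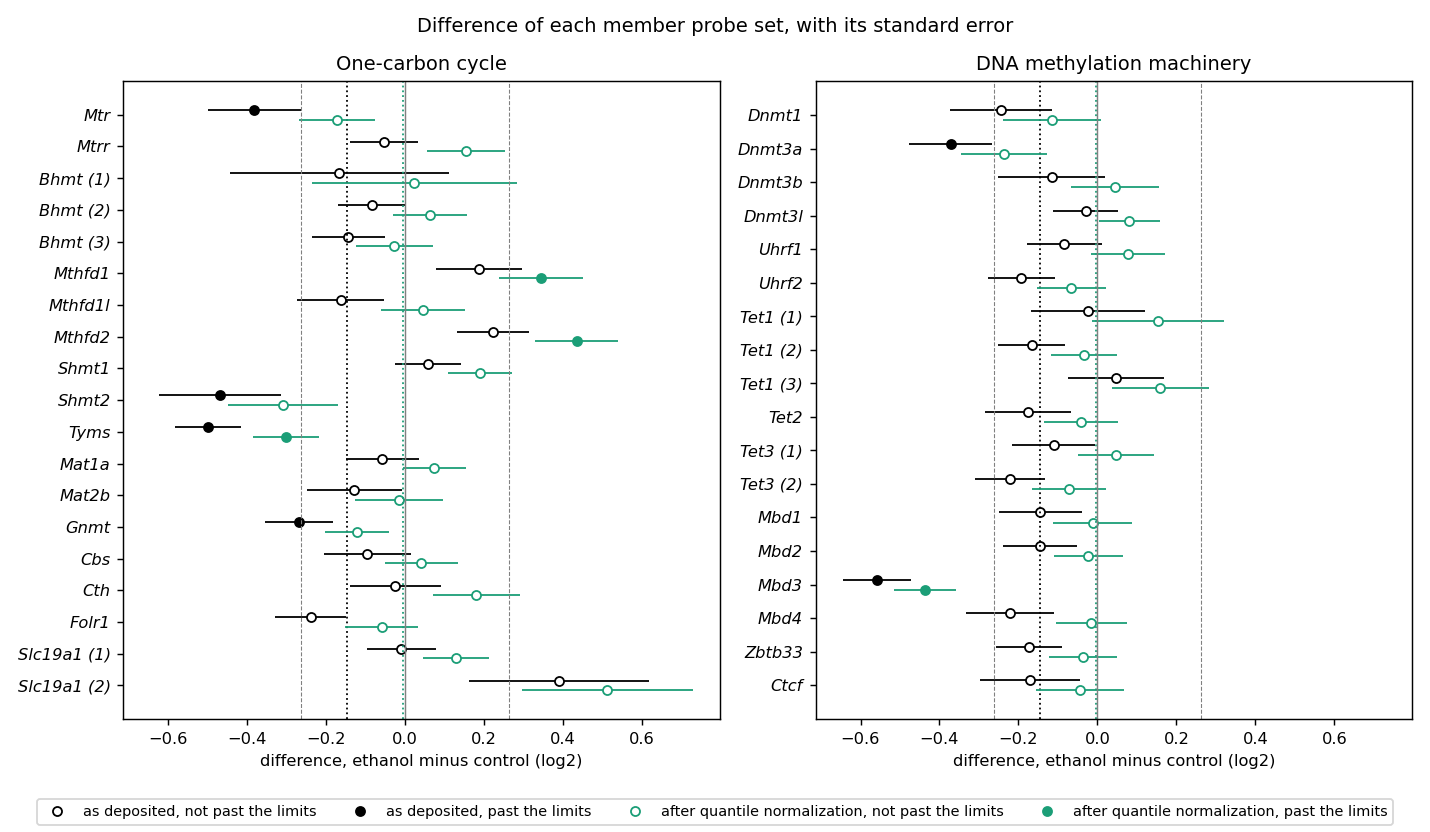
Difference between ethanol and control arrays (log2, horizontal axis) with its standard error for each of the 37 probe sets, as deposited in black and after quantile normalization in green. Filled points are past the limits, dashed lines mark 1.2-fold, and dotted lines mark the median of all probe sets (-0.146 and -0.0042). Most DNA methylation genes lie on the dotted lines, and Mbd3 lies furthest from them among the DNA methylation genes.

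Among the writers, Dnmt3a, the de novo methyltransferase of postnatal neurons, was lower on both ethanol arrays. Its log2 signals were 8.51 and 8.61 on control 1 and control 3 and 8.10 and 8.28 on ethanol 2 and ethanol 4. The groups did not overlap, and the difference was -0.37 (standard error 0.106, adjusted p = 0.182 in limma), a 1.29-fold decrease past the limits. After quantile normalization it was -0.24 (95% interval -0.52 to 0.051) and no longer past them. As deposited it also fell short of them without control 3, at -0.32, and without ethanol 2, at -0.28, and by the methods' test on the full set of arrays. Under the treatment entry it kept its sign, at -0.14, and was not past the limits.

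Dnmt1, which copies methylation after replication and remains abundant in neurons, gave log2 signals of 8.72 and 8.58 for the controls and 8.54 and 8.27 for the ethanol arrays. The lower control was only narrowly above the higher ethanol array. Its difference was -0.24 (standard error 0.130, adjusted p = 0.316 in limma), and -0.11 after quantile normalization, not past the limits in either form. Without ethanol 2 it was past them as deposited, at -0.38. Dnmt3b, the second de novo enzyme, differed by -0.12 and by 0.045, with control 1 alone high at 5.51. Dnmt3l, a catalytically inactive partner of germ cells, lay in the lowest 1.65% of every array and differed by -0.030 and by 0.081.

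Uhrf1 and Uhrf2 recognize hemimethylated DNA, and Uhrf1 brings Dnmt1 to it. Uhrf1 had low signals (5.20 to 5.38) and differed by -0.084 (95% interval -0.33 to 0.17) as deposited and by 0.078 after quantile normalization. Uhrf2 had 8.97 and 9.02 for the controls and 8.78 and 8.82 for the ethanol arrays, and the difference of -0.19 (standard error 0.085, adjusted p = 0.261 in limma) became -0.066 after quantile normalization. Neither was past the limits.

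No eraser was past the limits. The 3 probe sets of Tet1 differed by -0.025, -0.17 and 0.048, and those of Tet3 by -0.11 and -0.22. Tet2 differed by -0.18. After quantile normalization the 6 TET probe sets ran from -0.072 to 0.16. Tdg, the glycosylase that removes oxidized methylcytosine, shares its 4 probe sets with the pseudogene Tdg-ps2. These differed by -0.11 to -0.084 as deposited, with control 1 high and the other 3 arrays close together on each. After quantile normalization the sign turned, at 0.030 to 0.047.

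Further genes of the 2 pathways, from lists of genes outside those above, were counted for comparison. For the one-carbon cycle, 42 of 47 listed genes were measured by 43 probe sets, of which 9 were lower past the limits as deposited (20.9%, against 17.9% of all probe sets) and none was higher. The lowest were Amt, the aminomethyltransferase of the glycine cleavage system, at -0.56 (standard error 0.105, adjusted p = 0.166 in limma), and Mthfd2l, a mitochondrial relative of Mthfd2, at -0.55 (standard error 0.144, adjusted p = 0.175). The smallest of the 9 differences were those of Nnmt, at -0.28, and Gamt, at -0.27. After quantile normalization Amt and Gatm were past the limits and lower, at -0.38 and -0.29, and Slc46a1, the proton-coupled folate transporter, was higher at 0.29. These were 4.65% lower and 2.33% higher, against 5.87% and 5.71% of all. The median was -0.12 as deposited and 0.020 after normalization.

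For DNA methylation, 39 of 41 listed genes were measured by 42 probe sets. Of these, 5 were lower past the limits as deposited (11.9%, against 17.9% of all probe sets) and none was higher. Dmap1, a Dnmt1-associated protein, was lowest at -0.52 (standard error 0.141, adjusted p = 0.177 in limma), followed by the uracil glycosylase gene Smug1 at -0.38. Kdm1b and Cxxc4 were the smallest, at -0.31 and -0.30. After quantile normalization none was past the limits in either direction, and 3 had an unadjusted p under 0.05. The median was -0.13 as deposited and 0.0063 after normalization.

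The settings that change the values themselves were compared for the 8 genes past the limits in either form. All kept their sign with any array left out and under both further normalizations. Under the treatment entry Mbd3, Tyms, Shmt2, Mtr, Gnmt, Mthfd1 and Mthfd2 changed sign, and Dnmt3a did not. Each of those groups holds 1 array of each title, so a difference between the titled groups cancels there. On ethanol 2 and control 3, the arrays on which all labels name 1 group, Mbd3 differed by -0.53, Dnmt3a by -0.51 and Tyms by -0.47, with no test. The other 5 were short of 1.2-fold there, with -0.21 for Shmt2, -0.23 for Mtr, -0.22 for Gnmt, 0.073 for Mthfd1 and 0.14 for Mthfd2.

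**Figure D5:**
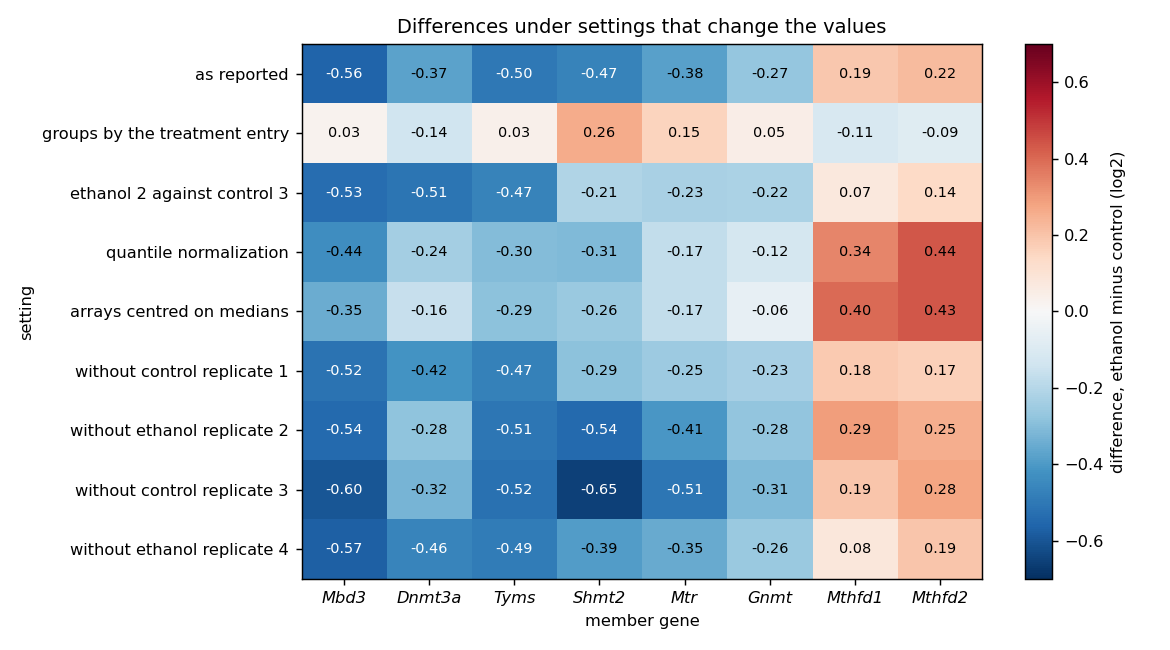
Difference between ethanol and control arrays (log2, colour and printed value) for the 8 genes (horizontal axis) under 9 settings (vertical axis). Mbd3 ranges from -0.60 to -0.35 in all rows except the grouping by the treatment entry, where it is 0.03.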

How the data were processed

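Whole-brain RNA, pooled from 3 males per array, was measured on 4 Mouse Gene 1.0 ST arrays. The authors summarized probes to gene level by the RMA algorithm adjusted for GC content, with quantile normalization, and deposited log2 values of 35556 probe sets. Per the labels this was done in Partek 6.6, and the methods name another version. Array medians of the deposited table differ, so its quantiles are not equal. Arrays give no count of molecules, and the precision is limited by how few there are.

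Groups follow the titles. A probe set belonged to a gene where the platform annotation names that gene alone (21797 of all probe sets name 1 gene, 1613 several and 12146 none). The annotation names no genome build. Each probe set was fitted with limma 3.58.1 in R 4.3.3 (2 residual and 2.57 prior degrees of freedom), with Benjamini-Hochberg adjustment over all probe sets. The limits of 1.2-fold and p of 0.05 follow the study, and dim probe sets were kept. Values were also quantile normalized across the 4 arrays. The procedure was also run on simulated data that held no shift of whole arrays. That run therefore does not bear on calls made under such a shift.

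All genes of both groups are named. Those past the limits in either form have full statistics, and of other lists the 2 lowest and 2 highest differences past the limits were named. Markers of neuroblasts, astrocytes, oligodendrocytes, microglia, vessels, meninges, pituitary, liver and blood included 5 probe sets lower past the limits and 1 higher as deposited. The share lower was at most 14.3% in any of these lists, against 17.9% of all probe sets. The 1 higher was among 9 of the meninges (11.1%, against 2.23% of all). After quantile normalization 1 of 7 oligodendrocyte and 1 of 9 pituitary probe sets were lower, against 5.87% of all. Higher were 1 of 7 vessel and 1 of 9 meninges probe sets, against 5.71% of all. The genes and lists were chosen with earlier results of these data known. With 2 pools per group, p-values reflect only spread between pools. In limma that spread is taken partly from all probe sets.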

Additional observations from a re-analysis of the deposited data

How the results depend on the processing

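With 2 pools per group, limma called no gene of either group at an adjusted p of 0.05, and the limits pass many probe sets on the whole array. Counts past the limits are given as lower one-carbon, higher one-carbon and lower DNA methylation probe sets, which were 4, 0 and 2 as reported. Higher DNA methylation probe sets were 0 under every setting run.

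The counts became 1, 2 and 1 after quantile normalization and 1, 4 and 1 with arrays centred on their medians. Centring shifted the whole array upward, with a median difference of 0.066 over all probe sets and 35.8% of them lower. The counts were 0, 1 and 0 under the treatment entry, and 0, 1 and 0 under it after quantile normalization. The methods' test for each probe set alone gave 2, 0 and 1, and a 1.5-fold limit 0, 0 and 0. Between ethanol 2 and control 3, by fold alone, they were 3, 1 and 2, but the 3 were Tyms, Folr1 and Mthfd1l, and Shmt2, Mtr and Gnmt fell short. With 1 array left out the counts ran from 1 to 4, from 0 to 1 and from 1 to 2, and after quantile normalization from 0 to 1, from 0 to 3 and stayed at 1.

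The labels say that the pools were matched by litter but not which pools match, so both pairings were run as a replicate block. Control 1 with ethanol 4 gave 2, 0 and 2, and the pairing of control 1 with ethanol 2 gave 3, 0 and 2. Requiring a mean log2 of at least 5, letting the prior variance follow intensity and taking the brightest probe set per gene left the counts as reported.

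The median difference of the one-carbon genes, -0.10 as reported, was -0.028 under the treatment entry, 0.046 after quantile normalization, 0.12 with arrays centred, -0.025 with quantile normalization and the treatment entry. With arrays left out it was -0.12 to -0.075, and after normalization without control 1, ethanol 2, control 3 and ethanol 4 it was 0.062, 0.063, 0.048 and 0.078. That of the DNA methylation genes, -0.17 as reported, was 0.013, -0.029, 0.043 and -0.0055 under the same settings. With arrays left out it was -0.18 to -0.14, and after normalization, in the same order, -0.014, -0.0090, -0.012 and -0.0084. Over all probe sets the median difference with arrays centred was 0.066.

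Under the treatment entry the differences of Mbd3, Tyms, Gnmt, Mtr and Shmt2 turned to 0.026, 0.034, 0.045, 0.15 and 0.26, and those of Mthfd1 and Mthfd2 to -0.11 and -0.086. After quantile normalization under the same entry they were 0.0092, 0.010, 0.045, 0.12, 0.24, -0.15 and -0.12. No other setting turned a sign among these. Quantile normalization combined with the treatment entry or with an array left out was chosen after seeing the data. Each group of the treatment entry holds 1 array of each title, so a difference between the titled groups cancels there. Beyond the settings themselves, the cause of the other changes was not tested.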
